A study of Homo sapiens with 6 samples.

Results

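The chemokine, interleukin and tumor necrosis factor (TNF) family genes were the 60 rows, of 12308 in the table, whose symbol began with CXCL, CCL, IL, TNFSF, TNFRSF or TNFAIP followed by a digit. They comprised 21 ligands, 32 receptors and 7 other members. The ligands were 5 CXC chemokines, 3 CC chemokines, 7 interleukins and 6 ligands of the TNF superfamily (TNFSF). The receptors were 20 interleukin receptor genes and 12 genes of the TNF receptor superfamily (TNFRSF). The other members were the interleukin-18 binding protein gene IL18BP, 5 TNFAIP genes and the antisense RNA IL10RB-AS1. Chemokine receptors carry symbols that the rule does not take.

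RNA-seq of total RNA was available for 3 cultures of OVCAR5 and 3 of OVCAR5R. OVCAR5 is a human high-grade serous ovarian cancer line with wild-type BRCA and no p53, and OVCAR5R is the line derived from it that resists prexasertib (Prex), an inhibitor of the checkpoint kinase CHK1. OVCAR5R was selected in rising Prex up to 3 µM, kept at 2 µM and grown without the drug for at least 4 days before use, and both lines were grown in medium that contained insulin. The comparison asks how the resistant line differs from its parent when neither is exposed to the drug, and OVCAR5R is 1 derived line, so the resistance and any other change acquired during selection cannot be told apart.

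Chemokines draw leukocytes along a gradient through receptors on the migrating cell, and interleukins and TNF ligands signal through dimeric or trimeric receptors on the cells that carry them. Receptors of the IL-1 and TNF families activate NF-κB, a transcription factor that in turn induces many chemokine and cytokine genes together with its own inhibitors, such as NFKBIA and TNFAIP3. Tumor cells of ovarian cancers can make several of these factors themselves, of which IL-6 and CXCL8 are the best known in ovarian cancer.

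The values were normalized signals whose sums were 937274 to 1038240 per library, and the smallest steps between low values put the libraries at an estimated 35800000 to 55100000 reads, with the 3 OVCAR5R libraries the deeper. OVCAR5 replicate 2 stood apart: the summed signal of the epithelial markers was 17308 there and 2388 to 4816 in the other 5 libraries. The epithelial keratins KRT8 and KRT18 were at least 1031 and 1108 in every library. EPCAM was 597 in OVCAR5 replicate 2 and 11.9 to 31.7 elsewhere, and KRT19 was 1341 there and 3.09 to 10.7 elsewhere. The other libraries were not alike for KRT7, with signals of 85.8, 939 and 92.7 in OVCAR5 against 431, 465 and 583 in OVCAR5R. CLDN4 had 142, 464 and 133 against 68.6, 131 and 101. With OVCAR5 replicate 2 left out, KRT7 was higher in OVCAR5R (limma adjusted p = 0.0185). The remaining listed epithelial markers had limma adjusted p of 0.262 to 0.587 in that fit. Of 6 Müllerian and serous ovarian markers 3 were listed, with means of 9.90 in OVCAR5 and 4.99 in OVCAR5R for PAX8, 2.32 and 1.11 for MSLN, and 0.0509 and 0.501 for WT1. Of 15 leukocyte markers only CD14 (means of 11.9 in OVCAR5 and 3.53 in OVCAR5R) and CD68 (51.2 and 71.6) were listed in the table, with sums of 56.5 to 71.8 in OVCAR5 and 74.4 to 76.1 in OVCAR5R. No endothelial marker of 6 was listed.

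No member differed between the lines after correction, and the larger pattern lay between cultures of the same line. In OVCAR5R, 12 of 20 tested ligand genes spanned at least 2 log2 units among the 3 cultures, most often with replicate 2 highest and replicate 1 lowest, and 1 of 30 receptor genes did. Averaged over cultures, IL1A, IL32, IL6R, IL7R, TNFRSF9 and TNFRSF1B had higher means in OVCAR5R, and TNFSF10, IL15RA, IL1R1 and TNFRSF14 had lower ones, and the sizes of several of these differences rested on single cultures. With bulk RNA, fewer cells that express a gene and less RNA per cell cannot be told apart.

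Promoters of 8 of the genes that varied widely between cultures are given first, some with and some without a match to the NF-κB consensus. The 150 bases before the transcription start of the CXC chemokine genes CXCL1, CXCL2, CXCL3 and CXCL8, of the cytokine gene IL1B, of the cytokine gene IL6, of the NF-κB inhibitor gene TNFAIP3 and of the receptor gene TNFRSF9 were read from RefSeq on GRCh38.p14, 5′ to 3′ on the strand of the gene, with matches to the NF-κB consensus in capitals. These genes were chosen after their values were seen.
CXCL1: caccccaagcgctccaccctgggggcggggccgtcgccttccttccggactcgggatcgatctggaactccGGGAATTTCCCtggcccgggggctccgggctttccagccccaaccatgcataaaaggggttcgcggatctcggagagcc
CXCL2: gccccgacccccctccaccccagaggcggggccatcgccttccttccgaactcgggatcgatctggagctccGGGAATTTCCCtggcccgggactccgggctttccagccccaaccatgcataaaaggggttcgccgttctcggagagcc
CXCL3: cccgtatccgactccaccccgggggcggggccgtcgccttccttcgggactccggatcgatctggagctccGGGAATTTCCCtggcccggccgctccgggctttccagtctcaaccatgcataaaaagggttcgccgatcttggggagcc
CXCL8: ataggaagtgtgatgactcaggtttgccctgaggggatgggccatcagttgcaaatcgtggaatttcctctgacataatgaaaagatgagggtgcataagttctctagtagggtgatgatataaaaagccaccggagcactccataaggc
IL1B: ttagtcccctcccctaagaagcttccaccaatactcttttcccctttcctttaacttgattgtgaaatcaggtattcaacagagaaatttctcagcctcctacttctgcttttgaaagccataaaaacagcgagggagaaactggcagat
IL6: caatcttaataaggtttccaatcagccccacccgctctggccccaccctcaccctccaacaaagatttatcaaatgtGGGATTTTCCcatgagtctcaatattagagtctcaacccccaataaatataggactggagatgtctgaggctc
TNFAIP3: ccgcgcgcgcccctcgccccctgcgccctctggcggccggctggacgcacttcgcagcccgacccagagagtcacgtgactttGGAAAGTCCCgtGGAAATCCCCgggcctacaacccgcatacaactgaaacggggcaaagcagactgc
TNFRSF9: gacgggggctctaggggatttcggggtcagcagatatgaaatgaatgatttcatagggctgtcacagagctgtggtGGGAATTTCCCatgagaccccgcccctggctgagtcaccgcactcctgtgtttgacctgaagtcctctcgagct
The stretches lie at chr4:73869243-73869392 (plus strand) for CXCL1, chr4:74099196-74099345 (minus) for CXCL2, chr4:74038690-74038839 (minus) for CXCL3, chr4:73740419-73740568 (plus) for CXCL8, chr2:112836780-112836929 (minus) for IL1B, chr7:22727050-22727199 (plus) for IL6, chr6:137867109-137867258 (plus) for TNFAIP3 and chr1:7940840-7940989 (minus) for TNFRSF9. The CXCL1, CXCL2, CXCL3 and TNFRSF9 promoters hold the same GGGAATTTCCC, which matches the consensus on both strands with the matches overlapping. The stretches of CXCL8 and IL1B hold no full match. That of CXCL8 holds ggaatttcc, a part of the GGGAATTTCCC above. Only full matches were counted, so partial ones in any promoter are left out, and binding of NF-κB was not tested. The promoter of CCL2, with the widest span in OVCAR5R, was not analysed here. Those of CXCL1, CXCL2 and CXCL3 resemble each other along the whole stretch, with 86.1% to 88.7% of aligned bases identical.

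The consensus, searched on both strands in the 250 bases before the start, occurred in 5.21% of 35116 RefSeq promoters and in a promoter of 15 of the 47 members that had an entry. Among the members whose OVCAR5R libraries spanned at least 2 log2 units, a promoter of 9 of 14 held a match, CXCL5 included. The similar promoters of CXCL1, CXCL2 and CXCL3 count separately among the 9, so these matches are not independent. Among the members that spanned less, 6 of 33 did. The AP-1 motif TGANTCA occurred in 6.57% of promoters and in 7 members, of which 4 were among the 14. A match describes the letters in this window, and members with several promoters had more chances of one.

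The CXC chemokines CXCL1, CXCL2, CXCL3 and CXCL8 attract neutrophils, and their genes lie in a cluster on chromosome 4. CXCL8, the gene of interleukin-8, had signals of 43.8, 65.3 and 9.91 in OVCAR5 replicates 1, 2 and 3, and of 7.14, 106 and 20.4 in OVCAR5R. The highest and the lowest of the 6 libraries were thus both OVCAR5R cultures, and the fold change was -0.26 on the log2 scale (SE 0.97, limma adjusted p = 0.951). CXCL1 had 19.0, 25.4 and 9.53 in OVCAR5 and 2.07, 37.8 and 9.76 in OVCAR5R (log2 fold change -0.70, SE 0.82).
CXCL2 followed with 12.1, 12.3 and 2.79 against 2.15, 21.3 and 4.43 (log2 fold change -0.27, SE 0.77). CXCL3 had 10.4, 22.4 and 5.32 against 1.62, 17.5 and 2.63 (log2 fold change -1.09, SE 0.76). In all 4 genes OVCAR5R replicate 2 was the highest OVCAR5R library and replicate 1 the lowest, a span of 18.2-fold for CXCL1 and of 9.89-fold for CXCL2. In OVCAR5, replicate 2 was highest and replicate 3 lowest for each of them. Transcripts of CXCL1 and CXCL2 are 87.9% identical over their aligned bases and those of CXCL3 72.1% identical to either, so reads may have been split among them. CXCL5 passed too few libraries to be tested, with a signal of 7.59 in OVCAR5R replicate 2 and at most 1.39 elsewhere.

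Among the CC chemokines, CCL2 recruits monocytes, CCL20 is the ligand of CCR6 and CCL28 is a mucosal chemokine made by epithelia. CCL2 had signals of 4.69, 163 and 37.0 in OVCAR5R, a 34.8-fold difference between replicates 1 and 2 and, at 4.85 units of log2(signal + 1), the widest span of the tested ligands in that line. Its OVCAR5 libraries gave 105, 10.9 and 23.1, with replicate 1 at least 2 log2 units above the others. The range of OVCAR5 lay within that of OVCAR5R (log2 fold change 0.08, SE 1.20).
CCL20 gave 5.82, 22.6 and 1.65 in OVCAR5 and 0.773, 11.9 and 4.40 in OVCAR5R (log2 fold change -0.60, SE 0.91). CCL28 had the lowest fold change of all members, -3.03 on the log2 scale (SE 1.52, limma adjusted p = 0.534), from 1.19, 184 and 1.39 in OVCAR5 against 0.132, 0.344 and 0.186 in OVCAR5R. Every OVCAR5R signal was below 1, so CCL28 was tested only through OVCAR5, the line where it was higher. The groups did not overlap, but the size rested on OVCAR5 replicate 2, the library with the high epithelial markers, and without it the log2 fold change was -0.91. The part of the epithelial markers in the CCL28 signal was not tested.

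**Figure D1:**
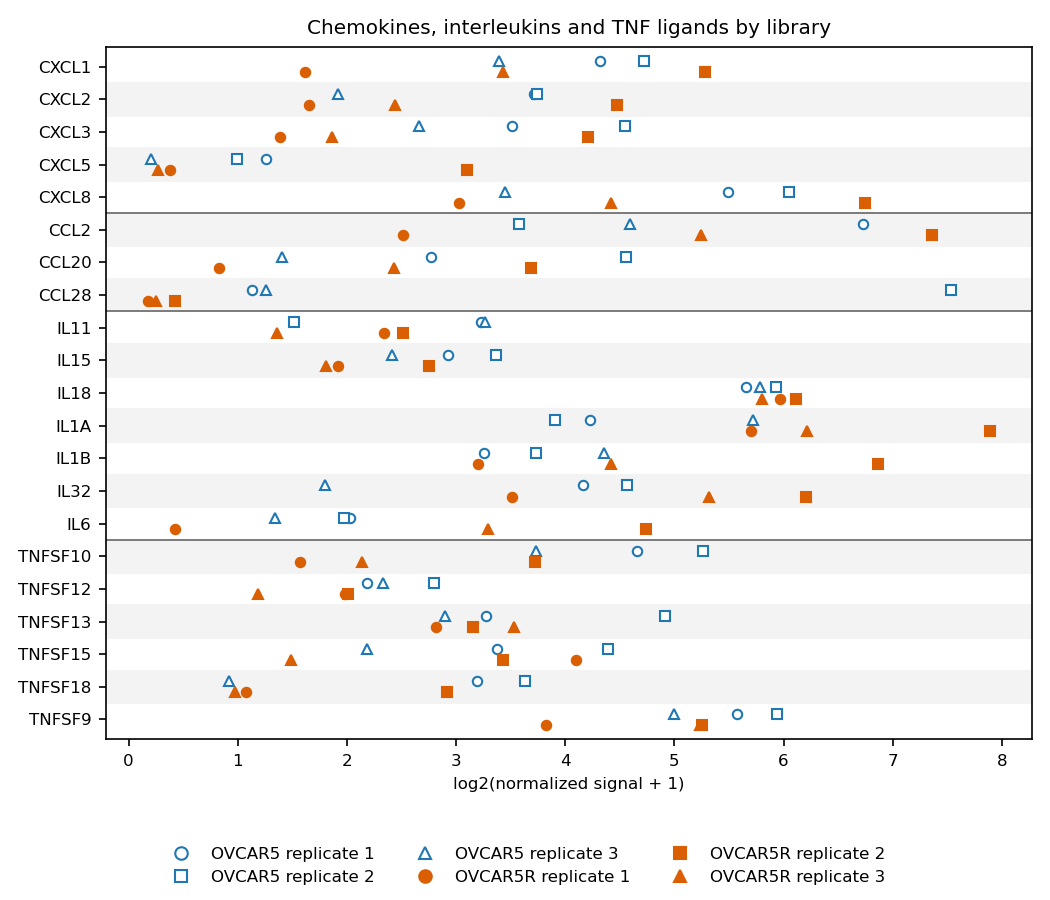
Signal of each ligand gene in each library on the log2(signal + 1) scale (horizontal axis), with OVCAR5 as open blue and OVCAR5R as filled orange symbols and the replicate given by shape. The OVCAR5R replicate 2 squares lie to the right of the other OVCAR5R symbols for the CXC and CC chemokines and for IL1A, IL1B, IL32 and IL6, and the OVCAR5 replicate 2 square of CCL28 stands alone at a signal of 184.

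The interleukins were the ligand class with the highest median fold change, 1.04 on the log2 scale, with 5 of 7 genes above 0. That median was 0.079 without OVCAR5R replicate 2 and 1.86 without OVCAR5R replicate 1. IL1A encodes the alarmin IL-1α and lies on chromosome 2 beside IL1B. Its signal was 17.7, 14.0 and 51.8 in OVCAR5 and 51.0, 236 and 73.0 in OVCAR5R, which overlapped only through OVCAR5 replicate 3 and OVCAR5R replicate 1. The mean went from 27.8 ± 20.8 (SD, n = 3) to 120 ± 101, a log2 fold change of 1.98 (SE 0.64, limma adjusted p = 0.347). It was the highest of all members and stayed between 1.34 and 2.54 when any 1 library was left out.
IL1B, the IL-1β gene, had 8.55, 12.3 and 19.5 in OVCAR5 and 8.20, 115 and 20.4 in OVCAR5R, so that 1 OVCAR5R culture stood far above all others. Its log2 fold change was 1.04 (SE 0.82) and 0.03 without that culture.
IL6 had 3.07, 2.93 and 1.53 in OVCAR5 and 0.339, 25.7 and 8.81 in OVCAR5R, a 75.7-fold span within OVCAR5R. The lowest of these signals stood for an estimated 18 reads. OVCAR5R thus held both the lowest and the highest IL6 signals (log2 fold change 1.04, SE 0.95), and the fold change was 0.079 without replicate 2 of that line and 2.24 without its replicate 1.
IL32, which encodes a cytokine that induces TNF and other factors, had 16.9, 22.7 and 2.48 in OVCAR5 and 10.4, 72.8 and 38.9 in OVCAR5R (log2 fold change 1.5, SE 0.85). OVCAR5 replicate 3 was at least 2 log2 units below the other OVCAR5 cultures, and the fold change was 0.65 without it and 2.25 without OVCAR5R replicate 1.

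The other 3 interleukins differed less. IL18, an IL-1 family cytokine that epithelial cells store as a precursor, was among the steadiest ligands, with 49.4, 59.9 and 54.0 in OVCAR5 and 61.4, 68.0 and 54.9 in OVCAR5R (log2 fold change 0.17, SE 0.19). IL15, which sustains natural killer and memory T cells, had 6.60, 9.33 and 4.31 against 2.79, 5.74 and 2.5 (log2 fold change -0.74, SE 0.38). IL11, an IL-6 family cytokine, had 8.35, 1.85 and 8.59 against 4.05, 4.71 and 1.57 (log2 fold change -0.60, SE 0.55).

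All 6 TNFSF ligand genes had a lower mean log2 signal in OVCAR5R, with a median log2 fold change of -0.72. TNFSF10 encodes TRAIL, the ligand of the death receptors, and lies at chr3:172505508-172523507. Its signal was 24.2, 37.4 and 12.3 in OVCAR5 and 1.96, 12.2 and 3.39 in OVCAR5R, so that the lines did not overlap, although the lowest OVCAR5 and the highest OVCAR5R libraries nearly met. Its log2 fold change of -2.07 (SE 0.60, limma adjusted p = 0.306) stayed between -2.70 and -1.62 with any 1 library left out.
TNFSF12, which encodes TWEAK, did not overlap either, with 3.53, 5.94 and 4.03 against 2.94, 3.02 and 1.27 (log2 fold change -0.71, SE 0.36). TNFSF9, the 4-1BB ligand gene, was the TNFSF gene with the highest signal and had 46.5, 60.4 and 31.0 against 13.2, 37.1 and 36.7 (log2 fold change -0.73, SE 0.43). TNFSF18, the GITR ligand gene, had 8.14, 11.4 and 0.887 against 1.11, 6.57 and 0.969 (log2 fold change -0.92, SE 0.79).
The remaining TNFSF genes encode APRIL (TNFSF13) and TL1A (TNFSF15). TNFSF13 had 8.67, 29.1 and 6.44 against 6.05, 7.93 and 10.6 (log2 fold change -0.52, SE 0.51), with OVCAR5 replicate 2 again the highest. TNFSF15 had 9.35, 20.0 and 3.55 against 16.2, 9.77 and 1.81 (log2 fold change -0.31, SE 0.75). In both, leaving out 1 library could turn the sign. TNFSF12 and TNFSF13 share a read-through transcript, so their signals may not be separate.

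Receptor genes had values that lay closer together between cultures. IL6R, the ligand-binding receptor of IL-6, at chr1:154405193-154469450, had the lowest adjusted p of all members. It measured 35.0, 17.2 and 31.9 in OVCAR5 and 55.9, 58.8 and 61.2 in OVCAR5R, with no overlap and little spread in the resistant line. The mean went from 28.0 ± 9.51 to 58.6 ± 2.66 (SD, n = 3), a log2 fold change of 1.10 (SE 0.28, limma adjusted p = 0.293). IL6ST, the gp130 subunit that IL6R and IL11RA share, had 287, 66.7 and 146 against 203, 125 and 159, and the lines overlapped (log2 fold change 0.18, SE 0.48).
IL7R, the α chain of the IL-7 and TSLP receptors, had 37.0, 10.7 and 86.9 in OVCAR5 and 168, 124 and 85.6 in OVCAR5R. Its log2 fold change was 1.85 (SE 0.65, limma adjusted p = 0.391), and the lines overlapped by a single pair of libraries. It was 1.08 without OVCAR5 replicate 2. IL2RB, a subunit of the IL-2 and IL-15 receptors, had 20.0, 0.985 and 4.08 against 11.7, 22.0 and 9.30 (log2 fold change 1.28, SE 0.77), with OVCAR5 replicate 1 within the range of OVCAR5R. It was 2.18 without that library and 0.48 without OVCAR5 replicate 2.

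Other interleukin receptor genes had lower means in OVCAR5R. IL15RA, which presents IL-15 to neighbouring cells, had 25.0, 62.7 and 27.4 in OVCAR5 and 9.78, 19.1 and 17.4 in OVCAR5R without overlap (log2 fold change -1.19, SE 0.40, limma adjusted p = 0.371, and -0.78 without OVCAR5 replicate 2). IL1R1, the signalling receptor of IL-1α and IL-1β, had 25.5, 12.5 and 14.6 against 5.07, 6.57 and 13.1 (log2 fold change -1.04, SE 0.39). IL11RA had 6.46, 6.19 and 4.26 against 2.66, 3.71 and 2.57 without overlap (log2 fold change -0.73, SE 0.30), and it overlaps GALT on the same strand.
IL13RA1, a receptor chain for IL-13 and IL-4, was among the interleukin receptor genes with the highest signal, with 73.3, 58.8 and 57.6 against 65.9, 74.6 and 84.0 (log2 fold change 0.24, SE 0.20). IL12RB2 stayed at or below 0.319 in every library, and IL1RL2 was listed at 0 in each OVCAR5 library, so neither was tested. The median log2 fold change over the 18 tested interleukin receptor genes was -0.21.

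The TNFRSF genes had a median log2 fold change of -0.03 over 12 genes. TNFRSF1B encodes TNFR2, the TNF receptor without a death domain, and lies at chr1:12167003-12209228. It had 33.8, 26.8 and 54.3 in OVCAR5 and 63.2, 107 and 74.1 in OVCAR5R without overlap, with means of 38.3 ± 14.3 and 81.4 ± 22.9 (SD, n = 3). The log2 fold change was 1.09 (SE 0.31, limma adjusted p = 0.306). TNFRSF1A, the death domain receptor TNFR1, had 218, 137 and 201 against 130, 235 and 177, and the lines overlapped (log2 fold change -0.05, SE 0.28).
TNFRSF9, the receptor 4-1BB, was the receptor gene with the widest spread in OVCAR5R. It had 21.7, 5.82 and 4.31 in OVCAR5 and 11.7, 90.4 and 37.6 in OVCAR5R (log2 fold change 1.92, SE 0.76, limma adjusted p = 0.447, and 1.24 without OVCAR5R replicate 2), and it was highest in OVCAR5R replicate 2 and lowest in replicate 1 of that line, as the chemokines were.
TNFRSF14, the herpesvirus entry mediator HVEM, had 24.7, 30.0 and 22.6 in OVCAR5 and 7.64, 19.2 and 12.4 in OVCAR5R without overlap (log2 fold change -1.0, SE 0.33, limma adjusted p = 0.359). TNFRSF25, the death receptor DR3, had 4.63, 7.98 and 9.78 against 3.90, 6.80 and 4.02 (log2 fold change -0.50, SE 0.35), and it overlaps PLEKHG5 on the same strand.

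The receptors with the highest signal per kb of merged exons were TNFRSF6B, the soluble decoy receptor DcR3, at 137 in OVCAR5 and 103 in OVCAR5R, and TNFRSF12A, the TWEAK receptor Fn14, at 136 and 122. On that scale the ligands TNFSF9 (27.6 and 17.4), CCL2 (23.3 and 34.4) and IL18 (20.7 and 23.4) led in OVCAR5, and IL1A led among ligands in OVCAR5R with 56.5 against 13.1 in OVCAR5. TNFAIP2 exceeded every other member in OVCAR5 with 180 per kb, against 92.7 in OVCAR5R. The spread between cultures was wide for most of these, and neighbours in the order do not stand apart beyond it.
TNFRSF12A had signals of 121, 380 and 251 in OVCAR5 and 223, 211 and 243 in OVCAR5R, so that its mean log2 signal was the same within error (log2 fold change -0.00, SE 0.38, and 0.02 after quantile normalization and 0.06 after scaling to the same sum). TNFRSF6B had 157, 63.7 and 248 against 95.3, 155 and 102 (log2 fold change -0.24, SE 0.46), and it overlaps a read-through transcript with RTEL1.

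**Figure D2:**
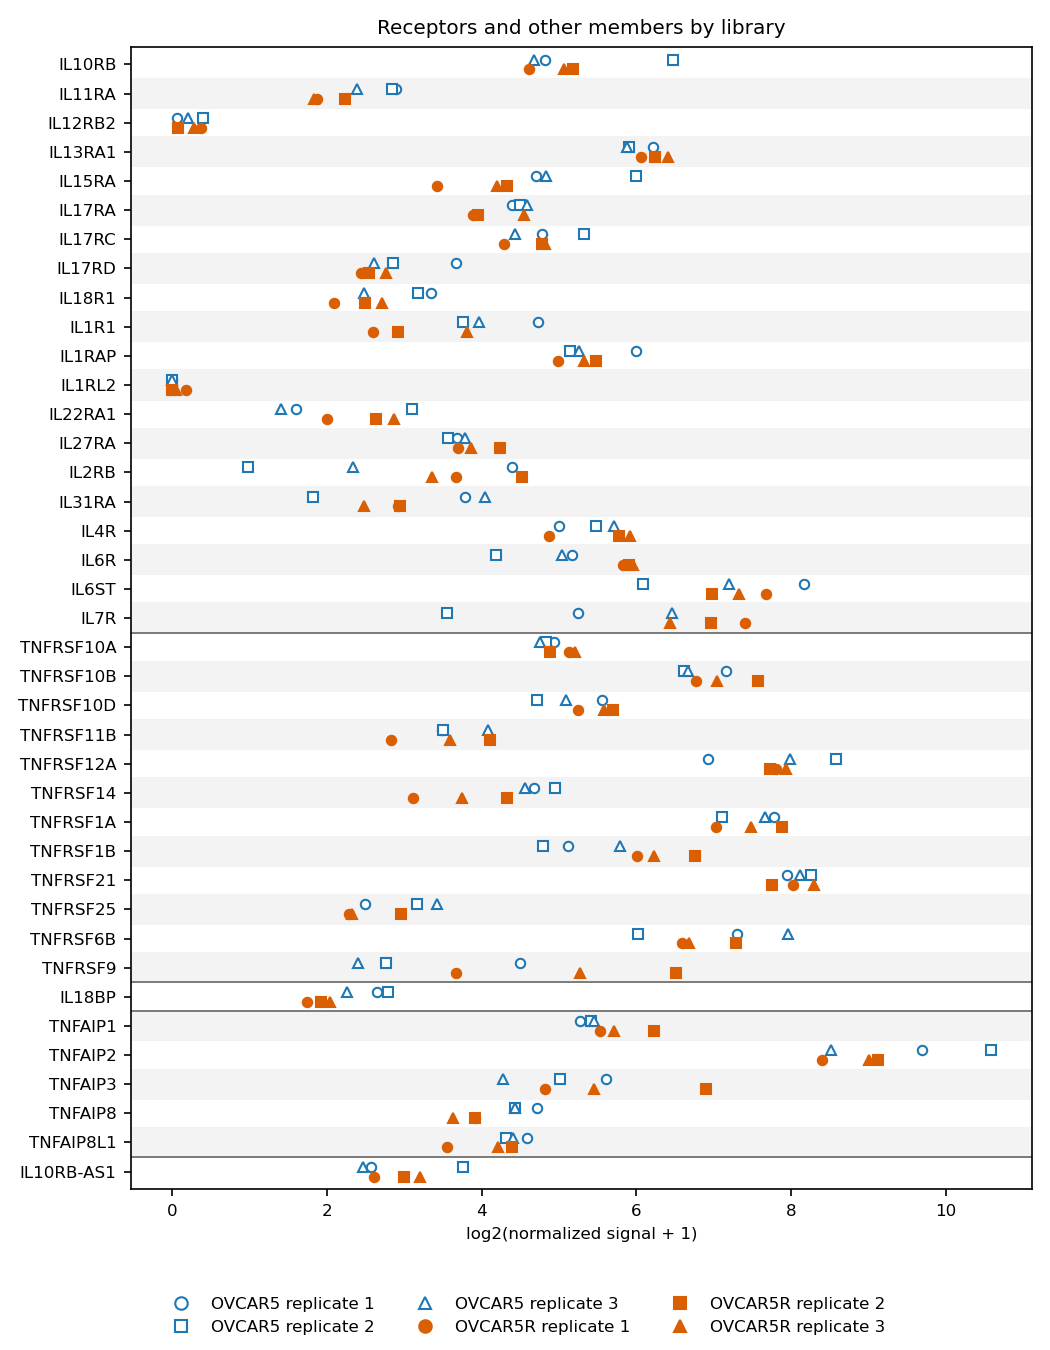
Signal of each receptor gene and each other member in each library on the log2(signal + 1) scale (horizontal axis), with OVCAR5 as open blue and OVCAR5R as filled orange symbols and the replicate given by shape. IL6R and TNFRSF1B lie to the right in OVCAR5R without overlap, IL15RA, IL11RA and TNFRSF14 to the left, and TNFRSF9 spans 2.84 log2 units in OVCAR5R.

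The TNFAIP genes are grouped by a symbol that refers to induction by TNF, and they do not form a single protein family. TNFAIP3, the ubiquitin-editing NF-κB inhibitor A20, had 47.9, 31.3 and 18.3 in OVCAR5 and 27.2, 118 and 42.7 in OVCAR5R (log2 fold change 0.76, SE 0.54), again with replicate 2 highest in OVCAR5R, and its fold change was 0.17 without that library and 1.21 without OVCAR5R replicate 1. TNFAIP2 had 823, 1529 and 363 against 335, 554 and 510 (log2 fold change -0.76, SE 0.49). TNFAIP8, a regulator of apoptosis, was steady within each line, with 25.4, 20.6 and 20.7 against 14.1, 14.2 and 11.3 without overlap (log2 fold change -0.71, SE 0.22, limma adjusted p = 0.333).
TNFAIP1 had 37.7, 41.4 and 42.7 against 45.2, 74.0 and 51.3 and did not overlap either (log2 fold change 0.44, SE 0.23). IL18BP, the secreted inhibitor of IL-18, had 5.28, 5.90 and 3.81 against 2.36, 2.79 and 3.12 without overlap (log2 fold change -0.66, SE 0.30). The IL18BP gene overlaps NUMA1 on the opposite strand, so its signal may hold NUMA1 reads if the counting ignored the strand. IL10RB-AS1 had 4.93, 12.6 and 4.51 against 5.13, 6.98 and 8.25 (log2 fold change 0.01, SE 0.40). IL10RB-AS1 was not found in the annotation used here, where no gene overlapped IL10RB on the opposite strand. Whether their signals share reads was not tested, and the strand setting of the counting is not given in the sources used here.

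The tests were read against all genes. Of the 57 members tested, 0 had an adjusted p under 0.05 in limma, where 0.119% of 11766 genes did. At an unadjusted p under 0.05, 5 members were higher and 6 lower in OVCAR5R, against 4.14% and 6.25% of all genes, and the exact Mann-Whitney test called 0 at either level because 3 against 3 cultures cannot give a p below 0.1. The members therefore passed no test, and their values are a description.
Without overlap between the lines, 3 members (5.26%) were higher in OVCAR5R, against 8.4% of all genes, and 8 (14%) were lower, against 8.18%. The 3 were IL6R, TNFRSF1B and TNFAIP1. The 8 were CCL28, TNFSF10, TNFSF12, IL15RA, IL11RA, TNFRSF14, TNFAIP8 and IL18BP. CCL28, also at least 2-fold lower, was tested only because its OVCAR5 signals reached 1. With a signal of at least 1 required in all 6 libraries, 10 members and 16.2% of all genes did not overlap. By size, 9 members (15.8%) were at least 2-fold higher, against 1.82% of all genes, and 6 (10.5%) at least 2-fold lower, against 4.16%. The counts depended on single cultures: without OVCAR5R replicate 2 the counts were 4 higher and 12 lower, and without OVCAR5R replicate 1 they were 11 higher and 2 lower. The shares of all genes with a culture left out are not given here.
Ligands had a median log2 fold change of -0.56, with 6 genes above 0 and 14 below, and receptors one of -0.06, with 13 above and 17 below. The median over all genes was -0.01. The ligand median ranged from -1.01 without OVCAR5R replicate 2 to -0.06 without OVCAR5R replicate 1, so its size depended on single cultures, while the receptor median kept between -0.13 and 0.05.

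**Figure D3:**
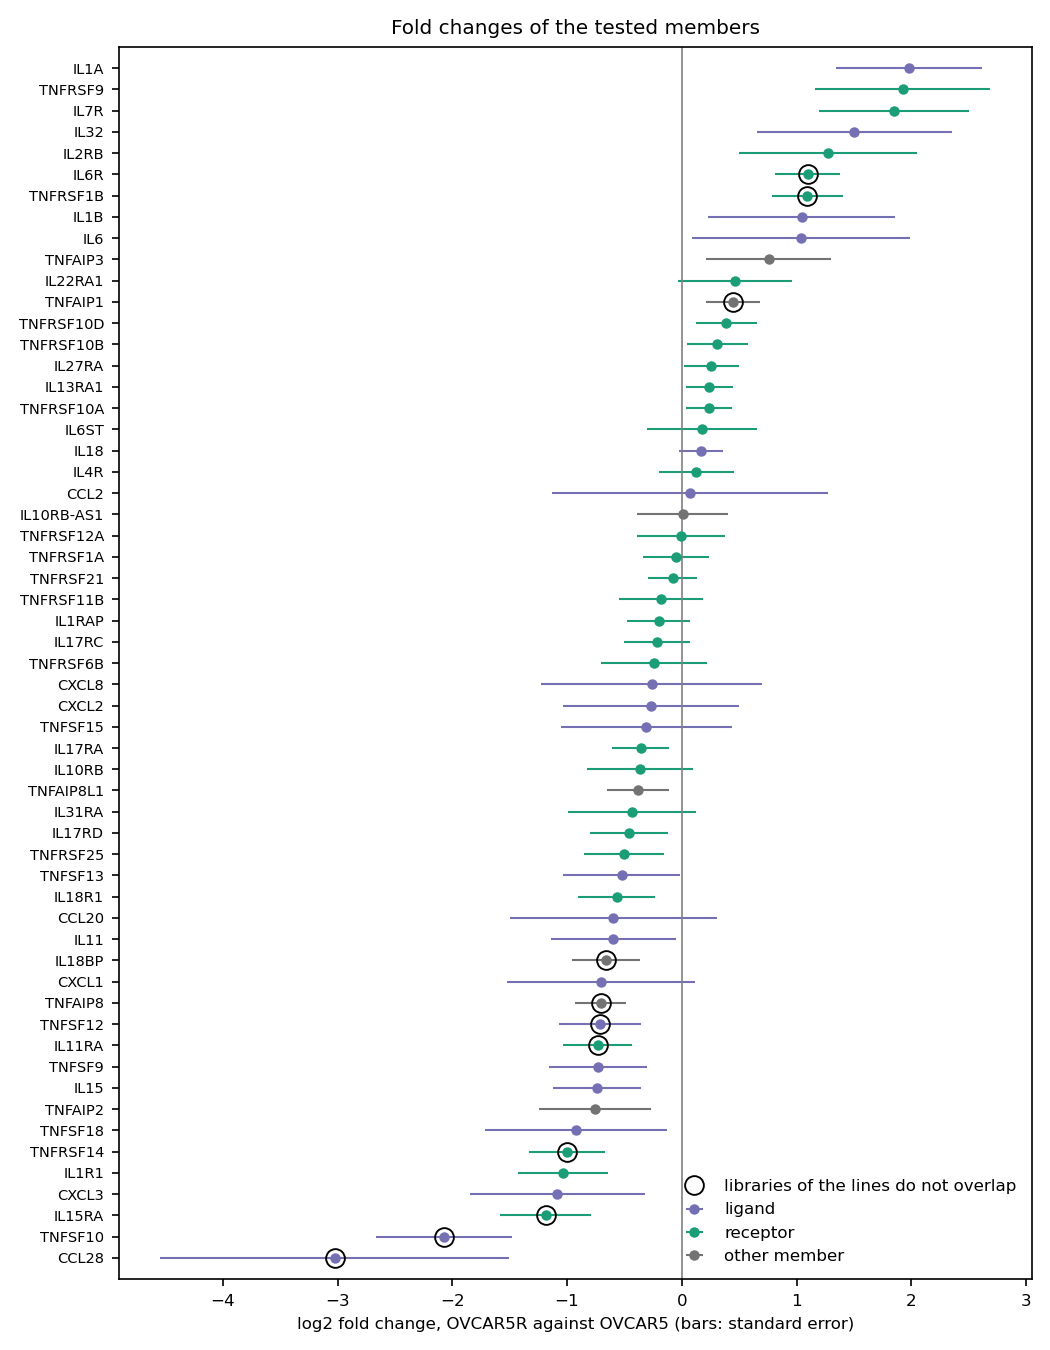
Log2 fold change of OVCAR5R against OVCAR5 for the 57 tested members (horizontal axis, points) with its standard error (bars), colored by ligand, receptor or other member and ordered by size. Ringed points are the 11 members whose libraries do not overlap between the lines, which, except for CCL28 and TNFSF10, lie within 1.2 log2 units of 0.

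Ligands had a wider spread between cultures than receptors, most of all in OVCAR5R. The SD of log2 signal among the 3 cultures had a median of 0.98 in OVCAR5 and 1.25 in OVCAR5R over the 20 tested ligands. Over the 30 receptors it was 0.47 and 0.36, and over all genes 0.34 and 0.25. The ligands also had lower signals, with a median of 13.4 against 29.4 for receptors and 35.0 for all genes, and the part of level in the spread was not tested.
A span of at least 2 log2 units (4-fold in signal + 1) within OVCAR5R was seen in 12 of 20 ligands (60%), in 1 of 30 receptors (3.33%, TNFRSF9) and in 1.92% of all genes. Within OVCAR5 it was seen in 8 ligands (40%), 5 receptors (16.7%) and 5.11% of all genes. The 5 receptors were IL2RB, IL31RA, IL6ST, IL7R and TNFRSF9. IL11, IL15, IL18, TNFSF9 and TNFSF12 spanned less than that in both lines, and CCL28, TNFSF13 and TNFSF18 did so in OVCAR5R.
No single culture accounted for all of it. Between the pair of OVCAR5R cultures left without replicate 2, 3 ligands (15%) differed by 2 log2 units, against 1.02% of all genes, and without replicate 1, 5 did (25%, against 0.408% of all genes). Without OVCAR5 replicate 2, 4 ligands (20%) and 2 receptors still spanned 2 log2 units, against 0.739% of all genes. Without OVCAR5 replicate 3, 2 ligands (10%) and 2 receptors (6.67%) did, against 2.6% of all genes.

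**Figure D4:**
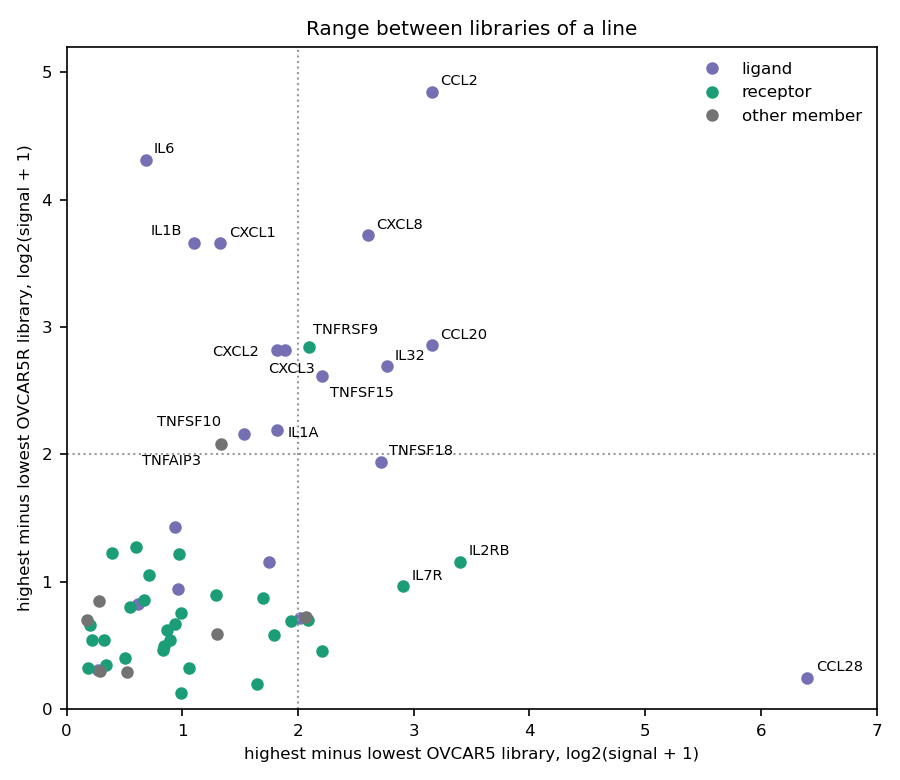
Span between the highest and the lowest library of OVCAR5 (horizontal axis) and of OVCAR5R (vertical axis) for the 57 tested members, in units of log2(signal + 1), with dotted lines at 2. Above the horizontal line lie 12 ligands, TNFAIP3 and the single receptor TNFRSF9, and CCL28 is alone at the right because of 1 OVCAR5 library.

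The cultures had the same order for most ligands. OVCAR5R replicate 2 was the highest OVCAR5R library for 18 of 20 ligands (90%), against 33.2% of all genes, and replicate 1 the lowest for 14 (70%), against 35.6%. Both held for 13 ligands (65%), against 18.5% of all genes. The order was not confined to ligands. Of the 30 receptors, replicate 2 was highest for 16 (53.3%), replicate 1 lowest for 22 (73.3%), and both held for 13 (43.3%). Both held for 9 of 12 TNFRSF genes (75%), 4 of 18 interleukin receptor genes (22.2%) and 4 of 5 TNFAIP genes (80%). In OVCAR5, replicate 2 was the highest for 15 ligands (75%), against 37.7%, and replicate 3 the lowest for 13 (65%), against 30.8%. For the receptors these counts were 7 (23.3%) and 10 (33.3%).
The median difference of the ligands from their own mean over the 6 libraries was 0.30, 0.82 and -0.40 in OVCAR5 and -1.21, 0.94 and -0.40 in OVCAR5R on the log2 scale. For the receptors it was 0.11, -0.12 and -0.01, and -0.37, 0.12 and 0.09. The ligand median thus moved by more between cultures of a line than between the lines. OVCAR5 replicate 2 was also the highest OVCAR5 library for all 6 listed epithelial markers, whose part in the ligand signals was not tested, and without it the ligand median fold change was -0.18.

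Genes of 2 NF-κB lists outside the members had the same order of OVCAR5R cultures, those of the adaptor and kinase list did not, and other lists had it in part. In a list of 17 NF-κB target genes that were tested, none of them a member, OVCAR5R replicate 2 was highest for 15 and replicate 1 lowest for 12, and the median difference was -1.27 in replicate 1 and 0.92 in replicate 2. In the list of 10 NF-κB subunits and inhibitors, 9 had replicate 2 highest and 9 had replicate 1 lowest. In OVCAR5, replicate 2 was highest for 9 targets (52.9%) and 5 subunits and inhibitors (50%), against 37.7% of all genes. Replicate 3 of OVCAR5 was lowest for 14 (82.4%) and 7 (70%), against 30.8%. In the list of 28 adaptors and kinases of TNF receptor signalling, OVCAR5R replicate 2 was highest for 10 (35.7%) and both orders held for 6 (21.4%), close to the 33.2% and 18.5% of all genes. Both orders held for 6 of 17 JAK, STAT, SOCS and IL-1 receptor adaptor genes (35.3%). They held for 4 of 8 TNF family genes with other names (50%). NFKBIA, the inhibitor IκBα and itself induced by NF-κB, had 162, 204 and 69.6 in OVCAR5 and 65.9, 384 and 186 in OVCAR5R. TNF had 1.61, 1.22 and 0.760 against 0.245, 46.8 and 10.3, and CSF2, the gene of the growth factor GM-CSF, had 13.0, 9.24 and 4.84 against 2.34, 82.7 and 10.8. In each of these 3 genes the highest and the lowest of the 6 libraries were OVCAR5R replicates 2 and 1. The part of NF-κB activity in these differences was not tested.

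**Figure D5:**
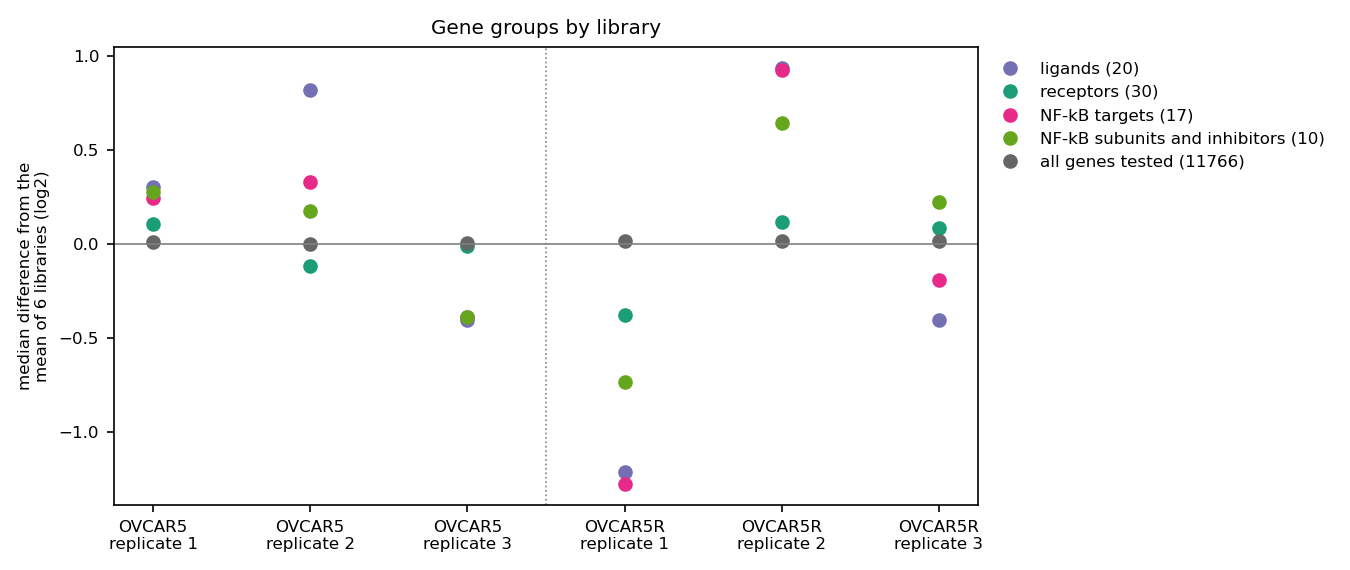
Median over the genes of a group of the difference between a library and the mean of all 6 libraries, in log2 units (vertical axis), for each library (horizontal axis). The ligands and the NF-κB targets both lie near -1.2 in OVCAR5R replicate 1 and above 0.9 in OVCAR5R replicate 2, the receptors stay within 0.4 of 0, and all genes lie near 0.

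Between the lines, the pathway genes outside the members gave 0 genes with an adjusted p under 0.05 in limma in any of 7 lists, of which some share genes. At an unadjusted p under 0.05, 3 (3.7%) of their 81 distinct genes tested were higher and 5 (6.17%) lower, against 4.14% and 6.25% of all genes, and the exact Mann-Whitney test called 0. Of 28 adaptor and kinase genes of TNF receptor signalling, 13 had a higher and 15 a lower mean log2 signal, and 2 and 3 of them passed an unadjusted p under 0.05. The extremes were MAP3K14, the kinase of the non-canonical NF-κB pathway (log2 fold change 1.15, SE 0.31), and IKBKB, the kinase IKKβ of the canonical pathway (-1.48, SE 0.34, limma adjusted p = 0.243). IKBKB had 98.1, 78.3 and 112 in OVCAR5 and 57.5, 28.1 and 22.8 in OVCAR5R, a difference without overlap whose order of cultures was not that of the ligands.
Among the 10 NF-κB subunits and inhibitors, 5 were higher and 5 lower, and among the 17 targets 8 and 9. The JAK, STAT, SOCS and IL-1 receptor adaptor genes had 6 of 17 higher and 11 lower, with log2 fold changes from -0.68 (TRAF3IP2) to 0.78 (SOCS2). In the IL-6 family, the cytokine gene LIF was at -1.43 and its receptor gene LIFR at 1.13, and 2 of 4 genes were higher. Of the 8 tested TNF family genes with other names, 6 were higher and 2 lower, from LTB at -1.08 to TNF at 2.02.

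Ligands and receptors were also set side by side in 52 pairs, of which 22 had both genes in the table. In 3 pairs both fold changes were above 0, in 7 both were below, in 6 only the ligand was above and in 6 only the receptor was. The tally counts the binding protein gene IL18BP as the partner of IL18, and of the 7 it includes TNFRSF12A, whose sign turned under other normalizations. Other paired genes, TNFSF15, TNFRSF6B and IL6ST among them, changed sign when 1 library was left out. Some genes, such as TNFSF10, enter several pairs, so the pairs are not independent. IL6 (1.04) and IL6R (1.10) were both above 0, although IL6 was at 0.079 without OVCAR5R replicate 2, whereas IL15 (-0.74) and IL15RA (-1.19), and IL11 (-0.60) and IL11RA (-0.73), were both below 0. IL1A (1.98) and IL1B (1.04) stood against IL1R1 (-1.04). TNFSF10 (-2.07) stood against the death receptor genes TNFRSF10A (0.23) and TNFRSF10B (0.31) and the decoy gene TNFRSF10D (0.39), and TNFSF9 (-0.73) against TNFRSF9 (1.92). The TNFRSF10 transcripts are 63.9% to 68% identical over their aligned bases. For the chemokines most pairs could not be formed: of 23 chemokine receptor genes only CXCR4, CCR10 and CCRL2 were listed in the table, with CXCR4 at no more than 0.302.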

How the data were processed

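Total RNA of triplicate cultures of OVCAR5 and OVCAR5R had been sequenced. The authors deposited a table of 12309 rows with 1 value per library. Each value is a normalized signal per gene, not a count: the paper's methods name quartile normalization and log transformation, and the deposited signal is on a linear scale. The submitters' processing notes name the build hg38. The aligner, the counting tool, its strand setting and the annotation are not given in the sources used here. The second copy of 1 row that was listed in identical form was left out.

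Each signal was used as log2(signal + 1). Genes with a signal of at least 1 in at least 3 of 6 libraries were tested with limma 3.58.1 (R 4.3.3, eBayes with a trend, two-sided), and p-values were adjusted by Benjamini-Hochberg over 11766 genes at a threshold of 0.05. The paper names a Mann-Whitney test, which was run as an alternative. The script was tested on simulated data. Between 62.1% and 67.3% of all values above 0 per library, high ones included, were whole multiples of 1 step (tolerance 0.02 steps). A count test was not run, and the steps gave the estimated reads. Intervals for counting error were not computed, and p-values measure only the spread between these cultures.

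Symbols were matched to GENCODE release 29 for lengths, positions and overlaps (12234 symbols and 59 of the 60 members), and promoters came from RefSeq (GRCh38.p14). The labels do not state whether same-numbered cultures were handled together, so replicate numbers were not taken as pairs. Named with values were members without overlap and a log2 fold change of at least 0.5 in size, the extremes of each role, those with the highest signal, and those with 1 library at least 2 log2 units from both others of its line. CXCL5, IL12RB2, IL1RL2, IL31RA, TNFRSF1A, TNFRSF10A, TNFRSF10B, TNFRSF10D, NFKBIA, TNF, CSF2 and IKBKB were named after their values were seen. Members and gene lists were chosen with earlier results of these data known. Alternatives were quantile normalization, scaling to the same sum, a pseudocount of 0.1, other filters, no trend, a replicate block and each library left out.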

Additional observations from a re-analysis of the deposited data

How the results depend on the processing

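In none of the settings run did a member pass an adjusted p of 0.05, and the lowest adjusted p of a member in limma was 0.152 to 0.486. The number of members without overlap was 10 to 13 under the other settings, where 16.2% to 17.8% of all genes did not overlap. It was 16 to 20 with 1 library left out, where 24.3% to 33.3% of all genes did not overlap because fewer libraries are compared. With 1 library left out, the number of members at least 2-fold higher was 4 to 11 and lower 2 to 12, and the shares of all genes in those fits are not given here. These 2-fold counts, and the spans, were added after seeing the data. Spans of at least 2 log2 units were left in 2 to 7 ligands and in 2 receptors of OVCAR5, and in 3 to 11 ligands and 0 to 1 receptors of OVCAR5R. The ligand median was -0.63 to -0.42 under other settings. The median of all genes was -0.01 in the reported fit and 0.06 at most, after scaling to the same sum.

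Of the 40 named members 29 kept their sign in every setting. TNFRSF12A turned to 0.021 after quantile normalization and 0.061 after scaling to the same sum. Leaving out 1 library gave log2 fold changes of -1.09 to 1.34 for CCL2, -1.35 to 0.23 for CCL20, -1.62 to 0.21 for CXCL1, -1.08 to 0.33 for CXCL2, -1.27 to 0.59 for CXCL8, -0.22 to 0.43 for IL10RB-AS1, -0.36 to 0.69 for IL6ST, -0.45 to 0.37 for TNFRSF12A, -0.78 to 0.19 for TNFRSF6B, -0.92 to 0.086 for TNFSF13 and -0.87 to 0.45 for TNFSF15. The cause was not tested.

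With the replicate block, 0 members passed the adjusted threshold, and 10 passed the unadjusted one, against 11 without the block. Of the 11766 genes, 1305 passed the unadjusted threshold with the block and 1222 without it. The count of adjusted calls over all genes went from 14 to 5. The same-numbered libraries had correlations of deviations of -0.00, 0.18 and -0.12, and differently numbered ones had -0.19 to 0.25. The numbers were not taken as pairs, but these correlations cannot show how the cultures were handled.

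With 3 cultures a line, the spread within each line rests on 3 values. The lowest library of CCL28 stood for an estimated 7 reads and that of IL6 for 18, and those of the untested CXCL5, IL12RB2 and IL1RL2 for 6, 2 and 0.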
